A study of Mus musculus with 12 samples.

Results

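The comparison described here is the difference between the responses of GSK3 knockout and unmodified mouse embryonic stem (ES) cells to JQ1 in serum/LIF. It is the JQ1 to DMSO log2 fold change of the knockout minus that of unmodified cells, and it uses 8 of the 12 RNA sequencing libraries of the series, 2 in each of 4 groups. Of the groups, 2 hold ES cells whose labels name no genotype change, unmodified for short, given the solvent DMSO or 100 nM JQ1. The other 2 hold GSK3 knockout ES cells given DMSO or 100 nM JQ1. All 4 groups grew in medium with serum and the cytokine LIF and were harvested 60 h after treatment. Serum/LIF cells had been kept on mitotically blocked mouse embryonic fibroblasts and were plated on gelatin for the experiment. The labels give neither the strain, sex or clone of the cells nor which part of the GSK3 genes was deleted, and they do not say that the 2 libraries of a group came from separate cultures. The spread behind the p-values may thus be only technical. Of 52550 genes listed, the 16987 with enough counts entered the test.

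GSK3 is a pair of related kinases, encoded by Gsk3a and Gsk3b, that mark beta-catenin for destruction and also phosphorylate many other proteins. Without it beta-catenin builds up and lifts the repression that TCF factors place on pluripotency genes in ES cells. JQ1 displaces the BET bromodomain proteins, readers of acetylated histones such as Brd2, which recruit the machinery that releases RNA polymerase into elongation and are dense at active enhancers. Per the series title and design text, the question is how these 2 conditions combine, and a positive difference here means that a gene fell less, or rose more, with JQ1 in the knockout than in unmodified cells.

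Values are given in CPM, counts per 1000000 of the TMM-scaled library size, first for replicate 1 and then for replicate 2. Log2 differences carry the standard error (SE) of the edgeR quasi-likelihood fit, and a gene passed where its p, adjusted over all genes by Benjamini-Hochberg, was under 0.05. The knockout label was checked on its targets. Gsk3b stood at 74.7 and 72.2 CPM in unmodified cells with DMSO, 110.5 and 86.3 with JQ1, 51.2 and 42.5 in knockout cells with DMSO and 61.1 and 58 with JQ1. Gsk3a stood at 76.8 and 65.1 CPM in unmodified cells with DMSO, 78.4 and 87.2 with JQ1, 24.7 and 23.4 in knockout cells with DMSO and 32.9 and 28.2 with JQ1. Transcripts of both genes were lower in the 4 knockout libraries than in the 4 unmodified ones but were not absent, and the difference of their JQ1 responses did not pass (0.13 ± 0.19, adjusted p = 0.72 for Gsk3a and -0.08 ± 0.18, adjusted p = 0.846 for Gsk3b). The libraries held between 18154447 and 48723436 expected counts. Mitochondrially encoded genes took 6.45% to 11.9% of counts in unmodified and 7.20% to 11.2% in knockout libraries, and were lower with JQ1 in both. All 8 ES cell markers, among them Pou5f1, Sox2 and Nanog, were above 1 CPM on average in each group. The 12 fibroblast markers summed to 1176 to 1257 CPM in unmodified DMSO libraries, 457 to 524 with JQ1, 383 to 584 in the knockout with DMSO and 191 to 249 with JQ1. Of the 11 fibroblast markers tested, 1 passed for the difference, Pdgfrb as higher, in 1 of 8 fits with a library left out (adjusted p up to 0.162), and their median difference was -0.02. The 5 contractile markers, such as Acta2, summed to 738 to 1101 CPM in unmodified DMSO libraries, 885 to 1404 with JQ1, 99.1 to 143 in the knockout with DMSO and 57.1 to 74.7 with JQ1. Their median difference was -1.01, on the side of the 530 genes with a lower response described next. Over the 9 genes of the longer contractile list the median was -0.37. Of these 9 genes 0 passed by edgeR, 3 had an unadjusted p under 0.05 and 1 passed by DESeq2. In bulk RNA, fewer cells of a type and less RNA per cell cannot be told apart, and the part of these other cell types in the differences was not tested.

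The JQ1 response differed between the genotypes for 742 of 16987 genes (4.37%). The knockout response was the lower one for 530 genes (3.12%) and the higher one for 212 (1.25%). By DESeq2 1350 of 13364 genes passed, 540 higher and 810 lower. For comparison, JQ1 itself changed 3623 genes (21.3%) in unmodified cells, of which 1450 (8.54%) rose and 2173 (12.8%) fell. In knockout cells it changed 5799 genes (34.1%), of which 2485 (14.6%) rose and 3314 (19.5%) fell, so most genes that responded to JQ1 in either genotype did not pass for a difference. Across all 16987 genes the 2 responses, which share no library, had a Pearson r of 0.53 and a Spearman rho of 0.51, given as a description over genes that are not independent. The sign of all 742 differences held with each of the 8 libraries left out in turn. With 1 library left out, between 196 genes (without knockout JQ1 replicate 1) and 1787 genes (without unmodified JQ1 replicate 2) passed, and 138 of the 742 passed in all 8 fits. The count without each of the others was 340 and 492 for the unmodified DMSO replicates 1 and 2, 388 for unmodified JQ1 replicate 1, 208 and 367 for the knockout DMSO replicates and 232 for knockout JQ1 replicate 2. Of the 104 named genes that passed, 51 did so in all 8 fits, and 53 lost the call in at least 1. The call was lost for 42 and 25 of them without knockout DMSO replicate 1 or 2, for 47 and 45 without knockout JQ1 replicate 1 or 2, for 25 and 26 without unmodified DMSO replicate 1 or 2, and for 31 and 2 without unmodified JQ1 replicate 1 or 2. Genes named as passing below did so in all 8 fits unless a number of fits is given.

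The 530 lower genes were mostly genes that fell with JQ1 in the knockout. Of them, 345 (65.09%) fell in the knockout with no call in unmodified cells, 78 (14.72%) fell in both but further in the knockout, 65 (12.26%) rose in unmodified cells with no call in the knockout, and 39 (7.358%) rose in unmodified cells and fell in the knockout. Their median response was 0.14 in unmodified and -1.26 in knockout cells. The 212 higher genes were of 2 main kinds. There were 102 (48.11%) that rose in the knockout with no call in unmodified cells, and 61 (28.77%) that fell in unmodified cells with no call in the knockout. A further 24 (11.32%) fell in unmodified and rose in knockout cells. Their median response was -0.42 in unmodified and 0.71 in knockout cells. Over all genes tested, the median difference was -0.02. The calls and medians of each genotype come from the libraries whose difference chose these genes. They describe the genes and are no separate evidence.

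**Figure D1:**
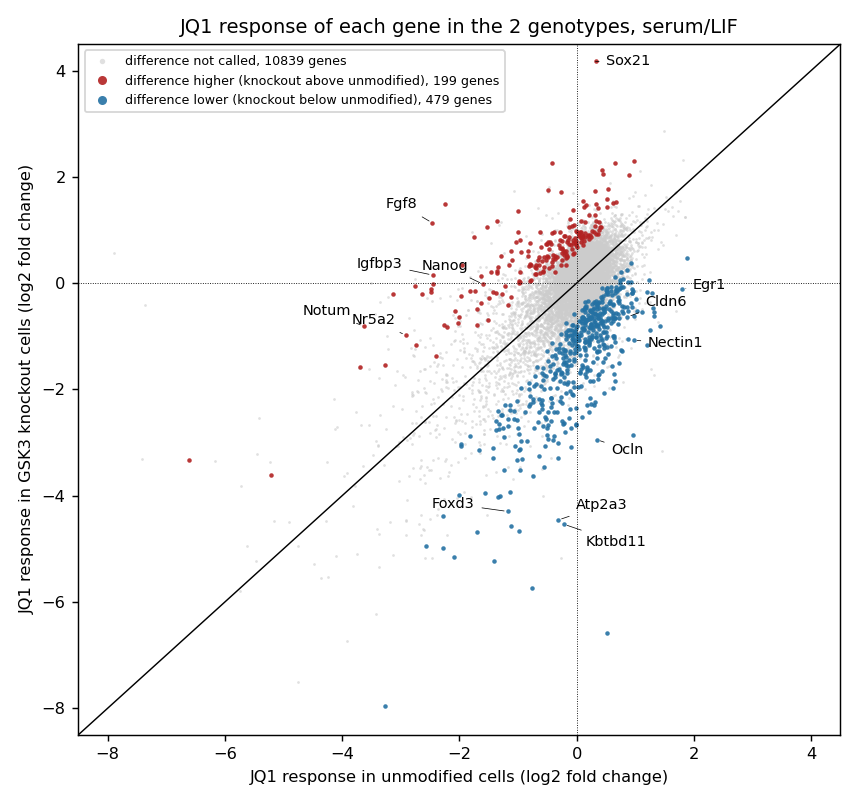
Each point is a gene with a mean of at least 5 CPM in at least 1 group. The x axis is the log2 fold change with JQ1 in unmodified cells and the y axis that in GSK3 knockout cells, red points are higher and blue points lower in the knockout at an adjusted p under 0.05, and the line marks equal responses. Of these genes, 199 were higher and 479 lower. Blue points gather at x near 0 and y below 0, and 5 genes lie outside the axes.

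Naive pluripotency factors, the transcription factors that hold ES cells in the state of the early epiblast, included 4 genes whose JQ1 response was higher in the knockout. Of 12 tested, these 4 passed as higher (Nanog, Nr5a2, Klf4 and Klf2) and 1 as lower (Klf5), and 11 of the 12 differences were positive. The median difference of the 12 was 1.00, beside -0.02 over all genes. In unmodified cells 10 of the 12 fell with JQ1 and 1 rose, beside 12.8% and 8.54% of all genes. In the knockout 4 fell and 1 rose, beside 19.5% and 14.6% of all genes. All 12 were higher in knockout than in unmodified cells with DMSO, so the responses started from different levels.

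Nanog, the homeobox factor that is needed to reach the naive state (ENSMUSG00000012396.12, chromosome 6, 122707489 to 122714633, plus strand of GRCm38), fell in unmodified cells and had no call in the knockout. It has 2 promoter windows, each the 250 bases before a RefSeq transcription start. The window at chr6:122707239-122707488 (plus strand, GRCm38.p6) is shown because Nanog RNA was held in the knockout. This window holds no exact match to the 4 motifs searched. Sites that differ by a letter, such as ttttgcat here beside the octamer read on the other strand, were not counted.
Nanog: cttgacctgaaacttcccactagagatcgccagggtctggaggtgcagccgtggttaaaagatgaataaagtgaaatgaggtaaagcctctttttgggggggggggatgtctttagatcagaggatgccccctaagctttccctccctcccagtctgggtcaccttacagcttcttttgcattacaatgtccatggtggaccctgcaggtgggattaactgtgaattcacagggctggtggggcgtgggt
Nanog stood at 140.1 and 174 CPM in unmodified cells with DMSO, 44.3 and 59.6 with JQ1, 339.7 and 372 in knockout cells with DMSO and 357 and 345 with JQ1. Unmodified cells with JQ1 lay below all the others, and the knockout libraries overlapped between DMSO and JQ1. It fell by 1.60 ± 0.15 in unmodified cells and did not pass in the knockout (-0.02 ± 0.14), a difference of 1.58 ± 0.20 (adjusted p = 0.00149).

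Nr5a2, a nuclear receptor that activates Pou5f1 and Nanog, fell in both genotypes but less in the knockout. Its levels were 27.1 and 41.6 CPM in unmodified cells with DMSO, 4.43 and 4.60 with JQ1, 85 and 83.6 in knockout cells with DMSO and 40.9 and 44.6 with JQ1. The knockout JQ1 libraries were at the upper end of the unmodified DMSO range or above it. The difference was 1.94 ± 0.25 (adjusted p = 0.00149). Klf4, a Krüppel-like factor downstream of LIF, stood at 37.9 and 44.7 CPM in unmodified cells with DMSO, 20.9 and 21.4 with JQ1, 146 and 158 in knockout cells with DMSO and 155 and 155 with JQ1. It fell by 0.96 ± 0.15 in unmodified cells and did not pass in the knockout (0.03 ± 0.14), and the difference was 0.99 ± 0.20 (adjusted p = 0.0169). Klf4 passed in 4 of 8 fits and was lost without knockout DMSO replicate 1, knockout JQ1 replicate 1, knockout JQ1 replicate 2 and unmodified DMSO replicate 2 (adjusted p up to 0.084, difference 0.93). Klf2, its relative, differed by 0.97 ± 0.24 (adjusted p = 0.0376) and passed in 2 of 8 fits, being lost without knockout DMSO replicate 1, knockout DMSO replicate 2, knockout JQ1 replicate 1, knockout JQ1 replicate 2, unmodified DMSO replicate 2 and unmodified JQ1 replicate 1 (adjusted p up to 0.127, difference 0.95). Klf5 went the other way: it stood at 123 and 101 CPM in unmodified cells with DMSO, 117 and 98.2 with JQ1, 309 and 293 in knockout cells with DMSO and 177 and 172 with JQ1, and fell in the knockout alone by 0.78 ± 0.12, with a difference of -0.72 ± 0.17 (adjusted p = 0.0352) that passed in 2 of 8 fits.

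Other factors of this list differed in the same direction as Nanog without passing. Esrrb, a nuclear receptor that GSK3 inhibition derepresses, stood at 75 and 126 CPM in unmodified cells with DMSO, 47.4 and 72.4 with JQ1, 511 and 494 in knockout cells with DMSO and 627 and 634 with JQ1, with a difference of 1.07 ± 0.30 (adjusted p = 0.0607). The difference was 1.01 ± 0.31 (adjusted p = 0.0849) for Zfp42 and 1.39 ± 0.38 (adjusted p = 0.0551) for Nr0b1. Tbx3 and Tfcp2l1 were both high in the knockout and differed by 0.25 ± 0.16 (adjusted p = 0.393) and 0.33 ± 0.23 (adjusted p = 0.411). Among the 14 accessory naive genes tested, 1 passed as higher and 1 as lower, with a median difference of 0.10. The higher one was Tdh, threonine dehydrogenase, an enzyme that mouse ES cells depend on for one-carbon metabolism. Tdh stood at 191 and 271 CPM in unmodified cells with DMSO, 90.7 and 135 with JQ1, 554 and 609 in knockout cells with DMSO and 986 and 1010 with JQ1. It fell by 1.03 ± 0.18 in unmodified cells and rose by 0.78 ± 0.18 in the knockout, and no JQ1 library of either genotype overlapped its own DMSO libraries.

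General pluripotency genes, which are shared by naive and later epiblast states, leaned the other way. Of 12 tested, 3 passed, all as lower (Foxd3, Lin28a and Lin28b), with a median difference of -0.36. Pou5f1, the POU factor Oct4, stood at 544 and 582 CPM in unmodified cells with DMSO, 417 and 652 with JQ1, 740.2 and 836 in knockout cells with DMSO and 819.9 and 902 with JQ1, with a difference of 0.20 ± 0.24 (adjusted p = 0.662). Sox2, its partner, differed by 0.65 ± 0.32 (adjusted p = 0.244). Foxd3, a forkhead factor of the epiblast, had one of the 15 lowest differences of the genes eligible for naming, -3.12 ± 0.51 (adjusted p = 0.00563). Its levels were 19.5 and 28.4 CPM in unmodified cells with DMSO, 7.12 and 14 with JQ1, 22.2 and 29.2 in knockout cells with DMSO and 1.24 and 1.39 with JQ1. Both genotypes had like levels with DMSO, and the knockout JQ1 libraries were below all the others. Lin28a and Lin28b encode RNA-binding proteins that block maturation of let-7 microRNAs. Lin28a stood at 312 and 277 CPM in unmodified cells with DMSO, 411 and 406 with JQ1, 185 and 177 in knockout cells with DMSO and 96.5 and 94.5 with JQ1, and fell in the knockout alone. The differences were -1.40 ± 0.28 (adjusted p = 0.016) for Lin28a, which passed in 4 of 8 fits, and -1.19 ± 0.24 (adjusted p = 0.0169) for Lin28b, which passed in 2. For both the highest adjusted p, 0.0739 and 0.0942, came without knockout JQ1 replicate 1. The Tet genes encode oxidases that start DNA demethylation. In the list of 11 DNA methylation and Tet genes Tet2 and Tet3 passed, both as lower, with a median difference of -0.40, and Tet3 passed in 1 of 8 fits (adjusted p up to 0.188). Tet2 stood at 23.1 and 35.2 CPM in unmodified cells with DMSO, 23.2 and 15.1 with JQ1, 224 and 177 in knockout cells with DMSO and 38.3 and 39.6 with JQ1, so that in the knockout it fell from a high level toward that of unmodified cells, and its difference was -1.78 ± 0.33 (adjusted p = 0.0116). Tet2 passed in 5 of 8 fits, and its adjusted p was highest, 0.0603, without knockout JQ1 replicate 1 (difference -1.75).

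In the Wnt pathway, the layer nearest to GSK3, 1 of 11 genes of beta-catenin and its destruction complex, 2 of 10 TCF and LEF factor genes and 4 of 19 Wnt target genes passed for a difference, beside 4.37% of all genes. Ctnnb1, which encodes beta-catenin, stood at 568 and 521 CPM in unmodified cells with DMSO, 789 and 772 with JQ1, 579 and 561 in knockout cells with DMSO and 849 and 836 with JQ1. It rose with JQ1 in both genotypes by 0.52 ± 0.09 and 0.56 ± 0.09, a difference of 0.04 ± 0.13 (adjusted p = 0.881). Axin2, a negative feedback target of beta-catenin, was higher in the knockout, and its JQ1 response passed in neither genotype (difference -0.11 ± 0.36, adjusted p = 0.898). The gene of the destruction complex list that passed was Cdh1, described with the junction genes, and of the TCF and LEF factor genes Tcf7 passed as higher and the corepressor Tle3 as lower, in 1 and 3 of 8 fits. Cdh1 encodes a partner of beta-catenin at adherens junctions, so no gene of the destruction complex itself passed. The medians of these 2 lists were -0.19 and -0.02. Of the Wnt target genes, Notum, Sp8 and Tcf7 (also counted with the TCF and LEF factors) were higher and Ccnd1 lower. The median difference of the 19 was -0.01.

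Notum, a secreted enzyme that inactivates Wnt proteins (ENSMUSG00000042988.10, chromosome 11, 120653788 to 120661175, minus strand), was the clearest of them. It stood at 24.1 and 37.6 CPM in unmodified cells with DMSO, 2.91 and 1.98 with JQ1, 39.2 and 42.9 in knockout cells with DMSO and 27 and 19.5 with JQ1. Its fall in unmodified cells, 3.63 ± 0.25, was much deeper than that in the knockout, 0.81 ± 0.21, although the DMSO levels of the genotypes were close. The difference was 2.82 ± 0.33 (adjusted p = 0.000958). Sp8, a zinc finger factor of limb and brain, differed by 2.68 ± 0.45 (adjusted p = 0.00756). It started low in the knockout, at 1.02 and 0.838 CPM, and reached 4.60 and 4.34 with JQ1, still below the unmodified cells at 7.34 and 5.13. Ccnd1, the cyclin D1 gene, stood at 174 and 142 CPM in unmodified cells with DMSO, 122 and 89.8 with JQ1, 135 and 147 in knockout cells with DMSO and 43.3 and 49.8 with JQ1. Its difference was -1.02 ± 0.24 (adjusted p = 0.0301), which passed in 2 of 8 fits and reached an adjusted p of 0.137 without unmodified JQ1 replicate 1.

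Mesendoderm genes, which mark the primitive streak, had a median difference of 0.81, and 13 of 14 tested were positive, but only Fgf8 and Mixl1 passed, both as higher. In unmodified cells 9 of the 14 fell with JQ1, beside 12.8% of all genes. In the knockout 2 fell, beside 19.5% of all genes. Fgf8, a growth factor of the streak, stood at 35.8 and 27.1 CPM in unmodified cells with DMSO, 5.91 and 5.52 with JQ1, 0.356 and 0.224 in knockout cells with DMSO and 0.515 and 0.835 with JQ1. Mixl1, a homeobox factor, stood at 35.6 and 22.8 CPM in unmodified cells with DMSO, 4.78 and 5.76 with JQ1, 1.22 and 1.56 in knockout cells with DMSO and 1.51 and 1.00 with JQ1. Both fell in unmodified cells, by 2.46 ± 0.22 and 2.48 ± 0.25, and did not pass in the knockout, where they stood at 0.224 to 0.835 CPM and at 1.00 to 1.56 CPM from the start. The differences were 3.60 ± 0.49 (adjusted p = 0.00226) and 2.37 ± 0.41 (adjusted p = 0.00821), and Mixl1 passed in 6 of 8 fits, being lost without knockout DMSO replicate 1 and knockout JQ1 replicate 1 (adjusted p up to 0.0926). By contrast T (brachyury) and Eomes, T-box factors that induce mesoderm and endoderm, were well expressed in both genotypes and fell in both. T stood at 124 and 75.2 CPM in unmodified cells with DMSO, 15.3 and 13.1 with JQ1, 74.2 and 80.3 in knockout cells with DMSO and 15.6 and 21.9 with JQ1, with a difference of 0.76 ± 0.34 (adjusted p = 0.2). Eomes fell by 1.71 ± 0.20 in unmodified and by 1.59 ± 0.19 in knockout cells, with a difference of 0.12 ± 0.27 (adjusted p = 0.842). 

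Igfbp3 and Rspo3, secreted factors among the 15 highest differences, also started low in the knockout. Igfbp3, which binds insulin-like growth factors outside the cell, stood at 761 and 482 CPM in unmodified cells with DMSO, 135 and 91.7 with JQ1, 8.79 and 9.39 in knockout cells with DMSO and 10.7 and 9.41 with JQ1. Unmodified cells with DMSO were far above every other library, and the 4 knockout libraries lay between 8.79 and 10.7 CPM. The difference of 2.61 ± 0.31 (adjusted p = 0.000958) thus came with a fall of 2.46 ± 0.20 in unmodified cells and a value of 0.15 ± 0.24 in the knockout. Rspo3, a Wnt agonist, differed by 2.43 ± 0.54 (adjusted p = 0.0279), with 0.446 to 0.615 CPM in the knockout. It passed in 2 of 8 fits and was lost without knockout DMSO replicate 1, knockout DMSO replicate 2, knockout JQ1 replicate 1, knockout JQ1 replicate 2, unmodified DMSO replicate 1 and unmodified DMSO replicate 2 (adjusted p up to 0.163). The genotypes themselves differed widely, in 6790 genes (40.0%) with DMSO, 3219 higher (18.9%) and 3571 lower (21.0%) in the knockout, and in 7473 genes (44.0%) with JQ1, 3458 higher (20.4%) and 4015 lower (23.6%). Of the 212 higher genes, 104 were lower and 36 higher in knockout than in unmodified cells with DMSO. Of them, 15 had a mean under 1 CPM in the knockout with DMSO, beside 3453 of all 16987 genes tested. Limiting the test to genes at 1 CPM or more in both DMSO groups, an alternative chosen after seeing the data, left 775 genes passing, 232 higher and 543 lower.

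Of the other genes that fell in unmodified cells only, 3 act in redox balance and autophagy. Glrx, the redox enzyme glutaredoxin, stood at 46.9 and 35.6 CPM in unmodified cells with DMSO, 13.8 and 12.9 with JQ1, 13.4 and 14.8 in knockout cells with DMSO and 15.9 and 15 with JQ1, so the knockout already held the level that unmodified cells reached with JQ1 (difference 1.77 ± 0.22, adjusted p = 0.00135). Msrb2, a mitochondrial enzyme that repairs oxidised methionine, stood at 4.85 and 6.19 CPM in unmodified cells with DMSO, 1.09 and 1.74 with JQ1, 5.49 and 6.76 in knockout cells with DMSO and 7.86 and 7.57 with JQ1. It began at the same level in both genotypes and fell by 1.95 ± 0.25 in unmodified cells alone, a difference of 2.29 ± 0.34 (adjusted p = 0.00331). Calcoco2, an autophagy receptor, stood at 12.4 and 12 CPM in unmodified cells with DMSO, 1.56 and 1.21 with JQ1, 5.49 and 4.08 in knockout cells with DMSO and 4.05 and 4.34 with JQ1, and its difference was 2.93 ± 0.43 (adjusted p = 0.00342).

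Sox21 had the highest difference of the named genes that passed, 3.85 ± 0.37 (adjusted p = 0.000388). It encodes a SoxB2 transcription factor that counteracts Sox2-type activators and is best known from neural progenitors (ENSMUSG00000061517.8, chromosome 14, 118233232 to 118237030, minus strand). Its 250 bases before the start (chr14:118237031-118237280, minus strand, RefSeq, GRCm38.p6) are shown because the gene rose from a low level in 1 genotype only, and they hold none of the 4 motifs searched.
Sox21: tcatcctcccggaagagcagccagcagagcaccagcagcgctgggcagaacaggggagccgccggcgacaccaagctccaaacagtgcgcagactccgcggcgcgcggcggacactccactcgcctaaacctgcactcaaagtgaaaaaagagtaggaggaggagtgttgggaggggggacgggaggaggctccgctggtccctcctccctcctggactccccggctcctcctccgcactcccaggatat
Sox21 stood at 1.26 and 1.69 CPM in unmodified cells with DMSO, 1.35 and 2.23 with JQ1, 1.47 and 1.73 in knockout cells with DMSO and 30.5 and 27.3 with JQ1. The 6 libraries other than knockout with JQ1 lay between 1.26 and 2.23 CPM, and the knockout JQ1 libraries far above them. It rose by 4.17 ± 0.24 (adjusted p = 3.71e-07) in the knockout and did not pass in unmodified cells (0.32 ± 0.28). Of 8 neural genes tested, Sox21 and Sox11 passed, both as higher, with a median difference of 0.45. Sox11, a SoxC factor of neural and mesenchymal progenitors, rose in both genotypes, and more in the knockout, where it began lower. It stood at 93.8 and 75.9 CPM in unmodified cells with DMSO, 172 and 144 with JQ1, 19.6 and 13.6 in knockout cells with DMSO and 65.2 and 71 with JQ1, with a difference of 1.14 ± 0.23 (adjusted p = 0.0171), and it passed in 4 of 8 fits, being lost without knockout DMSO replicate 2, knockout JQ1 replicate 1, knockout JQ1 replicate 2 and unmodified DMSO replicate 1 (adjusted p up to 0.0776).

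The genes that rose in the knockout only with the smallest adjusted p were of mixed function. Commd3, a member of the COMMD family of endosomal trafficking proteins, stood at 22.6 and 16.4 CPM in unmodified cells with DMSO, 17.1 and 15.7 with JQ1, 10.2 and 9.39 in knockout cells with DMSO and 32.1 and 32.2 with JQ1, a difference of 1.97 ± 0.23 (adjusted p = 0.000958). Ddit4, an inhibitor of the growth kinase mTORC1 that is induced by stress, stood at 45.5 and 36.8 CPM in unmodified cells with DMSO, 30.4 and 31.3 with JQ1, 13.4 and 11.4 in knockout cells with DMSO and 24.6 and 23.2 with JQ1, a difference of 1.37 ± 0.21 (adjusted p = 0.00406). Cdkn2a, the locus of the cell cycle inhibitors p16 and p19Arf, stood at 6.84 and 7.93 CPM in unmodified cells with DMSO, 7.60 and 8.28 with JQ1, 3.15 and 3.58 in knockout cells with DMSO and 10.4 and 9.02 with JQ1, a difference of 1.43 ± 0.23 (adjusted p = 0.00569). In all 3 genes the knockout was lower than unmodified cells with DMSO, and JQ1 brought Commd3 and Cdkn2a above the unmodified JQ1 libraries but Ddit4 not. Tlnrd1, Rcan1 and Cenpx, which act in actin bundling, calcineurin signalling and centromere assembly, differed by 1.10 ± 0.19, 1.08 ± 0.19 and 1.25 ± 0.22, with adjusted p between 0.00812 and 0.00821. Among 15 histone genes tested, Hist1h1c, a linker histone, and H2afx, the histone variant of DNA damage signalling, passed, both as higher, with a median difference of 0.28. Hist1h1c stood at 7.82 and 6.29 CPM in unmodified cells with DMSO, 11.9 and 10.6 with JQ1, 2.24 and 2.40 in knockout cells with DMSO and 12.4 and 9.69 with JQ1, a difference of 1.60 ± 0.30 (adjusted p = 0.0128) in 5 of 8 fits (lost without knockout DMSO replicate 1, knockout JQ1 replicate 1 and unmodified DMSO replicate 1), and H2afx differed by 0.85 ± 0.22 (adjusted p = 0.048) in 1 of 8. H1f0, another linker histone gene, rose in both genotypes, by 1.77 ± 0.17 and 1.55 ± 0.17.

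**Figure D2:**
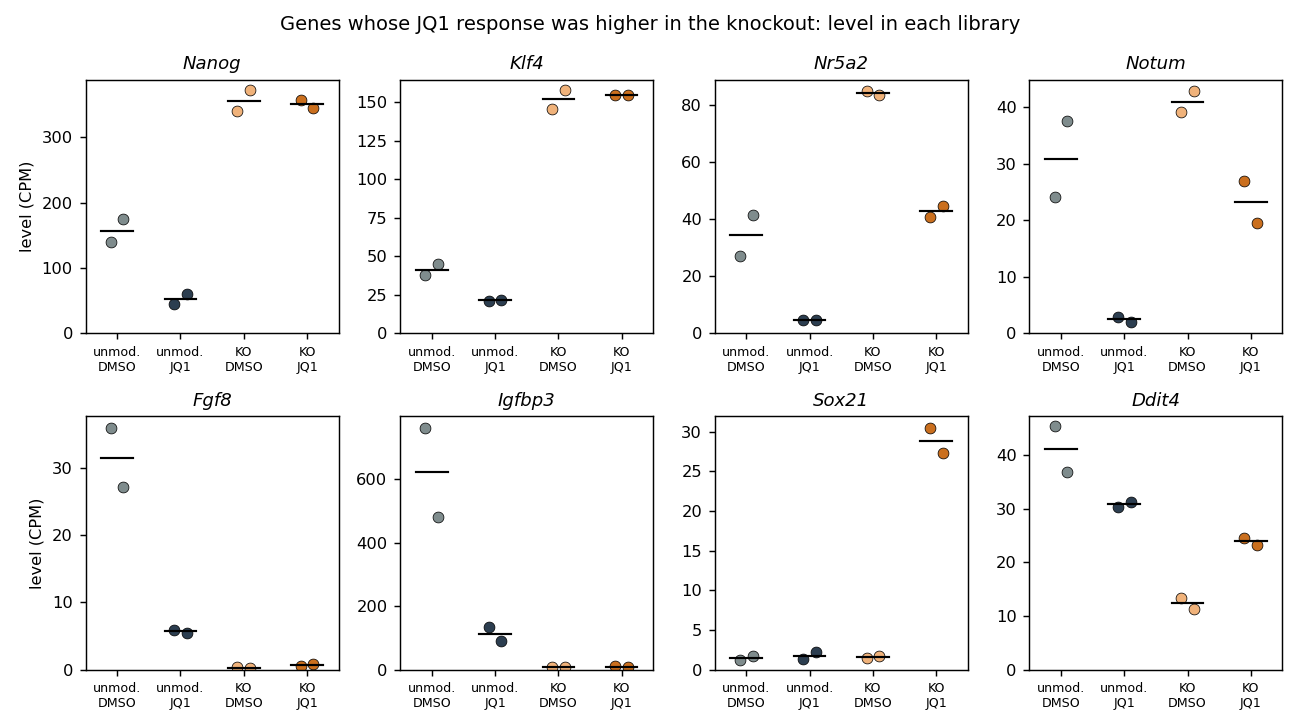
Each panel shows the level of a gene in CPM (y axis, linear, from 0) in the 8 libraries of the 4 groups (x axis), with points for libraries and a bar for the mean of 2. Nanog and Klf4 fell with JQ1 in unmodified cells alone, Fgf8 and Igfbp3 were near the bottom of the axis in all knockout libraries, and Sox21 rose to 27.3 and 30.5 CPM in the knockout with JQ1 alone.

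Several named genes with lower differences act in epithelial junctions and are described together here. They were grouped after their values were seen, so no count against a list is given and no theme is claimed for the 530 lower genes. Epcam, an epithelial adhesion molecule that ES cells carry on their surface (ENSMUSG00000045394.8, chromosome 17, 87635979 to 87651129, plus strand), went in opposite directions. Its 250 bases before the start (chr17:87635729-87635978, plus strand, RefSeq, GRCm38.p6) are shown as an example of these genes, and they hold none of the 4 motifs.
Epcam: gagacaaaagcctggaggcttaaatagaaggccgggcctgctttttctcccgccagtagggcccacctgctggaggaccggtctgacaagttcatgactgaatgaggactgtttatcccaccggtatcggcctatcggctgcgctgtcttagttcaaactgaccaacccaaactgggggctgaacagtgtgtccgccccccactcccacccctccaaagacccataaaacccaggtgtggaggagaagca
Epcam stood at 233 and 259.6 CPM in unmodified cells with DMSO, 347 and 365 with JQ1, 174 and 181 in knockout cells with DMSO and 118 and 100.3 with JQ1. With JQ1 both unmodified libraries were above their DMSO libraries and both knockout libraries below theirs. It rose by 0.53 ± 0.11 in unmodified cells and fell by 0.70 ± 0.11 in the knockout, a difference of -1.23 ± 0.15 (adjusted p = 0.00128).

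Nectin1, an adhesion receptor of adherens junctions (ENSMUSG00000032012.8, chromosome 9, 43743984 to 43807461, plus strand), stood at 36.3 and 41.1 CPM in unmodified cells with DMSO, 80.6 and 70.8 with JQ1, 80.3 and 69.9 in knockout cells with DMSO and 36 and 35.4 with JQ1. It rose by 0.97 ± 0.14 in unmodified cells and fell by 1.07 ± 0.14 in the knockout, so that each genotype with JQ1 came near the DMSO level of the other. The difference was -2.04 ± 0.19 (adjusted p = 0.000388). Cldn6, a claudin of tight junctions in early embryonic epithelium, stood at 304 and 287 CPM in unmodified cells with DMSO, 543 and 535 with JQ1, 40.2 and 43.5 in knockout cells with DMSO and 27.7 and 26 with JQ1. The knockout was already far below unmodified cells, and the difference was -1.50 ± 0.17 (adjusted p = 0.000958). Grhl2, a grainyhead factor that drives epithelial genes, rose by 0.52 ± 0.13 in unmodified cells and fell by 1.21 ± 0.15 in the knockout, where it stood at 21.3 and 21.2 CPM with DMSO and 8.48 and 9.97 with JQ1.

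Other junction genes fell in the knockout with no call in unmodified cells. Ocln, which encodes the tight junction protein occludin, stood at 16.6 and 19.9 CPM in unmodified cells with DMSO, 24.5 and 21.7 with JQ1, 13.7 and 12.1 in knockout cells with DMSO and 1.89 and 1.39 with JQ1. DMSO levels were close, and the knockout JQ1 libraries were far below every other library. The difference was -3.29 ± 0.35 (adjusted p = 0.000677). Cldn7, another claudin, was low in the knockout from the start (6.86 and 7.15 CPM against 67.5 and 56.1) and fell to 1.55 and 1.56, a difference of -2.39 ± 0.27 (adjusted p = 0.000958). Ap1m2, the epithelial subunit of a clathrin adaptor that sorts proteins to the basolateral membrane, stood at 50.5 and 43.3 CPM in unmodified cells with DMSO, 34.6 and 43.9 with JQ1, 27.3 and 24.6 in knockout cells with DMSO and 5.97 and 5.79 with JQ1, a difference of -1.88 ± 0.21 (adjusted p = 0.000909). Cdh1, which encodes E-cadherin, the partner of beta-catenin at adherens junctions, stood at 1123 and 1203 CPM in unmodified cells with DMSO, 1519 and 1145 with JQ1, 682 and 620.1 in knockout cells with DMSO and 427 and 392 with JQ1. It fell in the knockout by 0.67 ± 0.13, and its difference of -0.86 ± 0.19 (adjusted p = 0.0231) passed in 3 of 8 fits, being lost without knockout DMSO replicate 1, knockout JQ1 replicate 1, knockout JQ1 replicate 2, unmodified DMSO replicate 1 and unmodified JQ1 replicate 1 (adjusted p up to 0.11).

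Among the 15 lowest differences, many belonged to genes that JQ1 took to about 1 CPM or less in the knockout. Kbtbd11, which encodes a BTB and kelch domain protein (ENSMUSG00000055675.6, chromosome 8, 15011025 to 15033333, plus strand), stood at 4.91 and 5.68 CPM in unmodified cells with DMSO, 4.95 and 4.07 with JQ1, 24 and 23.2 in knockout cells with DMSO and 1.10 and 0.891 with JQ1. Atp2a3, the SERCA3 calcium pump of the endoplasmic reticulum, stood at 5.95 and 8.80 CPM in unmodified cells with DMSO, 6.73 and 4.89 with JQ1, 36.2 and 40.8 in knockout cells with DMSO and 1.89 and 1.56 with JQ1. Both were higher in the knockout than in unmodified cells with DMSO and lower with JQ1, and neither passed in unmodified cells. The differences were -4.32 ± 0.34 (adjusted p = 0.000177) and -4.14 ± 0.34 (adjusted p = 0.000177), the smallest adjusted p of the named genes. Fam129a, a stress-induced regulator of translation, followed the same course, from 46.6 and 38 to 5.67 and 4.12 CPM in the knockout against 12.1 and 9.72 and 12.1 and 8.42 in unmodified cells (difference -3.00 ± 0.36, adjusted p = 0.00111).

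Ggt1, gamma-glutamyl transferase, which breaks down glutathione outside the cell, fell in both genotypes and further in the knockout. Of the 104 named genes that passed, 70 had a RefSeq promoter window, and Ggt1 and Myh6 were the 2 with a window that held the TCF/LEF motif CTTTGAT, searched on both strands. It was in 2 of the 103 windows of these genes and in 3.21% of all 32851 windows. Ggt1 has 4 windows, and the window shown (chr10:75568412-75568661, plus strand, RefSeq, GRCm38.p6) was chosen because it held the motif, in capitals.
Ggt1: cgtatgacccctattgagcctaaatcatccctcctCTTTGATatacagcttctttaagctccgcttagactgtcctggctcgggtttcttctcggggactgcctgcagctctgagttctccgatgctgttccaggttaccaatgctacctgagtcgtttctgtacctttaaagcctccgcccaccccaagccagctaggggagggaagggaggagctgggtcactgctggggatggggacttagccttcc
Ggt1 stood at 6.78 and 6.04 CPM in unmodified cells with DMSO, 3.13 and 1.69 with JQ1, 11.5 and 14.4 in knockout cells with DMSO and 0.343 and 0.334 with JQ1. It fell by 1.41 ± 0.26 and 5.23 ± 0.34, a difference of -3.83 ± 0.45 (adjusted p = 0.000958). Galnt6, an enzyme that starts O-linked glycosylation, and Phlda2, an imprinted gene that restrains placental growth, also fell in both and more in the knockout, with differences of -2.98 ± 0.35 (adjusted p = 0.000958) and -2.56 ± 0.35 (adjusted p = 0.00234). Phlda2 stood at 106 and 115 CPM in unmodified cells with DMSO, 50.9 and 62.1 with JQ1, 10.9 and 14 in knockout cells with DMSO and 0.824 and 1.45 with JQ1.

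Several other genes with low differences are best known from blood cells. Cd74, the invariant chain of MHC class II, stood at 8.92 and 7.83 CPM in unmodified cells with DMSO, 4.04 and 4.45 with JQ1, 15.8 and 19.2 in knockout cells with DMSO and 0.584 and 0.835 with JQ1, a difference of -3.67 ± 0.38 (adjusted p = 0.000665). Nckap1l, a subunit of the actin-regulating WAVE complex in blood cells, stood at 8.72 and 9.11 CPM in unmodified cells with DMSO, 13.8 and 10.6 with JQ1, 27.2 and 29.1 in knockout cells with DMSO and 7.42 and 5.96 with JQ1, a difference of -2.52 ± 0.24 (adjusted p = 0.000388). Plcg2, a phospholipase of immune receptor signalling, differed by -2.07 ± 0.23 (adjusted p = 0.000842), and Tnfrsf1b, the TNF receptor 2, by -1.71 ± 0.23 (adjusted p = 0.00234). Slc7a7, a cationic amino acid transporter, fell from 86.3 and 99 to 26.9 and 34 CPM in the knockout against 174 and 187 and 178 and 203 in unmodified cells (difference -1.69 ± 0.18, adjusted p = 0.000732). This grouping was made after the values were seen.

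For some of the lowest differences the size cannot be read. Ltb, the cytokine lymphotoxin beta, was well expressed in unmodified cells (27.5 and 13.7 CPM with DMSO, 32.4 and 27.3 with JQ1), stood at 0.711 and 0.279 CPM in the knockout with DMSO and had no counts in either knockout JQ1 library. The long noncoding RNA Miat fell from 3.66 and 3.63 CPM to 0.103 and 0 in the knockout, the podocyte gene Nphs1 from 22.6 and 22.2 to 0.0687 and 0.111, and Myh6 and Cntn2 from 2.34 and 1.96 and 4.42 and 3.41 to 0.0687 and 0.111 and 0.137 and 0.0557. These end at a few counts per library, and Ltb, Nphs1, Myh6 and Cntn2 passed in 4, 6, 5 and 4 of 8 fits, with adjusted p up to 0.187, 0.118, 0.127 and 0.102. Of the 530 lower genes, 208 were higher and 142 lower in knockout than in unmodified cells with DMSO. With JQ1, 33 were higher and 383 lower. A mean under 1 CPM in the knockout with JQ1 was found for 87 of the 530 and for 4373 of all 16987 genes tested. Over all genes, 3219 were higher and 3571 lower in the knockout with DMSO, and 3458 and 4015 with JQ1. The same libraries define the difference, so these counts are given side by side only.

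Genes of the LIF, ERK and BMP pathways and of sterol synthesis included genes whose JQ1 response was lower in the knockout. Of 10 genes of the LIF receptor, JAK and STAT3 pathway, 3 passed, all as lower (Pim1, Pim3 and Stat3), and the median difference was -0.44. Pim1, a survival kinase induced by STAT3, stood at 109 and 94 CPM in unmodified cells with DMSO, 183 and 165 with JQ1, 75.8 and 70.5 in knockout cells with DMSO and 55 and 53.1 with JQ1. It rose by 0.78 ± 0.11 in unmodified cells and fell by 0.44 ± 0.11 in the knockout, a difference of -1.21 ± 0.15 (adjusted p = 0.00135). Its relative Pim3 and Stat3 itself differed by -0.80 ± 0.17 (adjusted p = 0.0195) and -0.75 ± 0.16 (adjusted p = 0.0197), and passed in 3 and 3 of 8 fits, with adjusted p up to 0.101 without knockout JQ1 replicate 2 and 0.0983 without knockout JQ1 replicate 1. Socs3, the feedback inhibitor of the same pathway, pointed the other way at 0.58 ± 0.18 (adjusted p = 0.0822).

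Among 17 genes of MEK-ERK feedback and immediate early response, 3 passed, all as lower (Egr1, Junb and Spry4), and the median difference was -0.25. Egr1, an immediate early zinc finger factor, stood at 21.1 and 18.6 CPM in unmodified cells with DMSO, 67.5 and 71.2 with JQ1, 14 and 23.9 in knockout cells with DMSO and 13 and 22.4 with JQ1. It rose by 1.80 ± 0.27 in unmodified cells with no overlap, and in the knockout the DMSO and JQ1 libraries overlapped. The difference was -1.91 ± 0.38 (adjusted p = 0.0154), and Egr1 passed in 6 of 8 fits, being lost without knockout DMSO replicate 2 and knockout JQ1 replicate 1 (adjusted p up to 0.0744). Spry4, a feedback inhibitor of receptor tyrosine kinases, was much higher in the knockout, stood at 48.1 and 45.6 CPM in unmodified cells with DMSO, 67.9 and 78.9 with JQ1, 247 and 228 in knockout cells with DMSO and 145 and 156 with JQ1 and differed by -1.30 ± 0.23 (adjusted p = 0.00821), a call lost without knockout JQ1 replicate 1 (adjusted p 0.0567). Junb, a subunit of the AP-1 factor, differed by -1.38 ± 0.27 (adjusted p = 0.0146) in 4 of 8 fits. Of 10 BMP and ID genes, Id1, a dominant negative helix-loop-helix factor induced by BMP, was the 1 that passed, as lower, and the median of the 10 was -0.11. It stood at 90.9 and 64.5 CPM in unmodified cells with DMSO, 150.3 and 146 with JQ1, 22.9 and 22.9 in knockout cells with DMSO and 20.5 and 14.4 with JQ1, a difference of -1.31 ± 0.25 (adjusted p = 0.0128), and the call was lost without knockout DMSO replicate 1 and knockout JQ1 replicate 2 (adjusted p up to 0.0618). Myc differed by -0.74 ± 0.19 (adjusted p = 0.0513) and did not pass.

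Of 20 genes of cholesterol synthesis and uptake, 8 passed, all as lower, and the median difference was -0.62, beside -0.02 over all genes. In unmodified cells 10 of the 20 rose with JQ1, beside 8.54% of all genes. In the knockout 3 rose and 7 fell, beside 14.6% and 19.5% of all genes. Dhcr7, the enzyme of the last step to cholesterol, has 3 promoter windows. The window shown (chr7:143822917-143823166, plus strand, RefSeq, GRCm38.p6) was chosen because it held AAGGTCA, the element bound by Esrrb and Nr5a2, in capitals. Dhcr7 is 1 of 5 named genes with a window that held AAGGTCA. This element was found in 5 of the 103 windows of named genes that passed and in 4.08% of all windows.
Dhcr7: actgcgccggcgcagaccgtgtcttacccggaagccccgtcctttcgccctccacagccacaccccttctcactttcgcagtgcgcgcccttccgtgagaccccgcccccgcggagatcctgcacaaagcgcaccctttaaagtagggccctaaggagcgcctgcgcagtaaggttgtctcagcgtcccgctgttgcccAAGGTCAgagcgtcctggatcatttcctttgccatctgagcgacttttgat
Dhcr7 stood at 64.2 and 73.6 CPM in unmodified cells with DMSO, 84.7 and 79 with JQ1, 77.5 and 72 in knockout cells with DMSO and 47 and 40.2 with JQ1. The DMSO libraries of the genotypes overlapped, the unmodified JQ1 libraries were above them and the knockout JQ1 libraries below. The difference was -1.02 ± 0.17 (adjusted p = 0.00559). Srebf2, which encodes the master regulator of sterol genes, stood at 275 and 281 CPM in unmodified cells with DMSO, 386 and 328 with JQ1, 318 and 281 in knockout cells with DMSO and 210.5 and 185 with JQ1, a difference of -0.96 ± 0.16 (adjusted p = 0.00668), and Msmo1, a sterol oxidase, differed by -0.93 ± 0.15 (adjusted p = 0.00574). Sqle, squalene epoxidase, rose by 0.68 ± 0.10 in unmodified cells alone. Its difference was -0.80 ± 0.14 (adjusted p = 0.00821), lost without knockout JQ1 replicate 2 (adjusted p 0.0582). Cyp51, Idi1 and Insig1 differed by -0.75, -0.61 and -0.74 and passed in 2, 2 and 3 of 8 fits.

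Other genes that rose in unmodified cells alone were Fzd3, a Wnt receptor, Slc43a2, an amino acid transporter, Map3k5, a kinase of stress signalling, and Gemin5, a subunit of the SMN complex. Fzd3 stood at 15.1 and 19.1 CPM in unmodified cells with DMSO, 44.5 and 38.1 with JQ1, 30.8 and 29.7 in knockout cells with DMSO and 27.7 and 25.4 with JQ1, a difference of -1.47 ± 0.21 (adjusted p = 0.00301). The others differed by -1.03, -1.36 and -0.75, with Map3k5 and Gemin5 passing in 6 and 6 of 8 fits. The MHC class I genes H2-K1 and H2-D1 were the 2 of 13 interferon and antigen presentation genes that passed, both as lower, while the median of the 13 was 0.36. H2-K1 stood at 107 and 95.4 CPM in unmodified cells with DMSO, 151 and 139 with JQ1, 43.1 and 49.9 in knockout cells with DMSO and 21.6 and 25.2 with JQ1, a difference of -1.51 ± 0.20 (adjusted p = 0.00217). The pair share sequence with each other and with other class I genes, so their counts are uncertain, and H2-D1 passed in 3 of 8 fits.

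**Figure D3:**
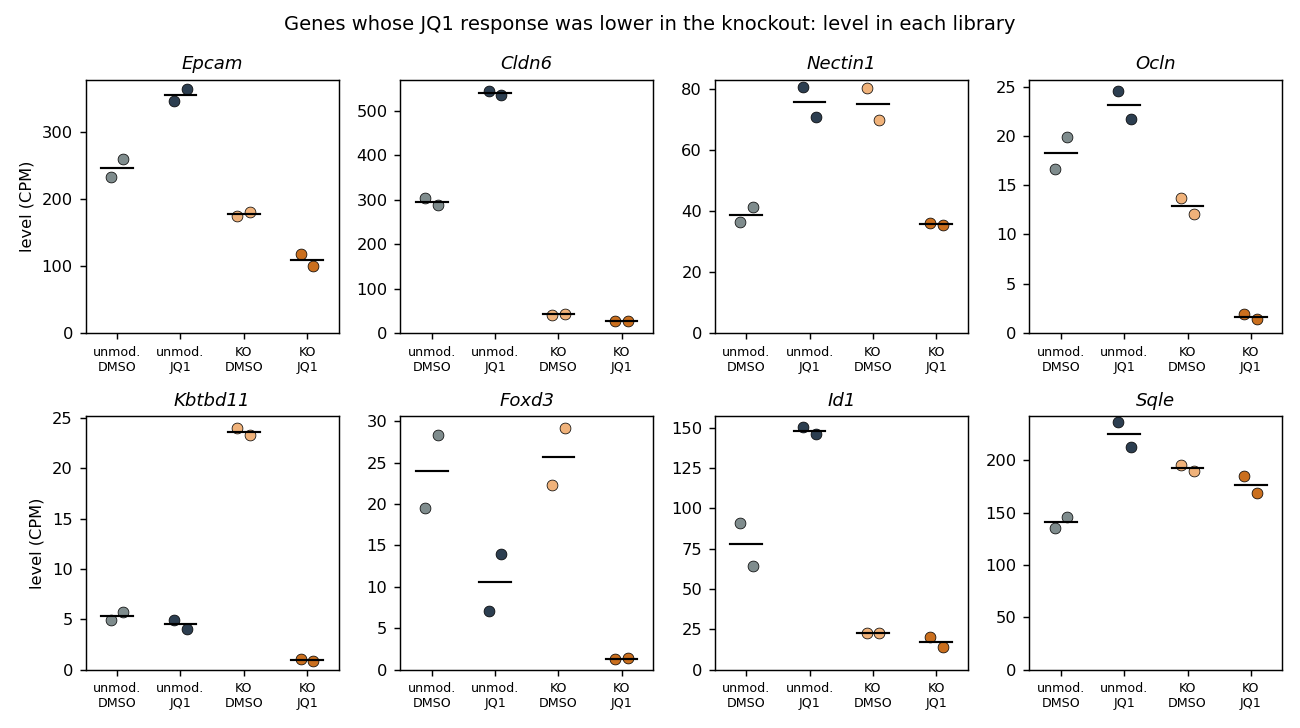
Each panel shows the level of a gene in CPM (y axis, linear, from 0) in the 8 libraries of the 4 groups (x axis), with points for libraries and a bar for the mean of 2. Epcam, Cldn6 and Nectin1 rose with JQ1 in unmodified and fell in knockout cells, Ocln, Kbtbd11 and Foxd3 fell to 1.89 CPM or less in the knockout with JQ1, and Id1 and Sqle rose in unmodified cells alone.

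Among the drug target and its partners, 2 of 15 BET and P-TEFb genes and 2 of 22 Mediator genes passed, beside 4.37% of all genes. Of the BET and P-TEFb genes, Larp7, which keeps P-TEFb in its inactive complex, passed as higher and Brd2 as lower, with a median difference of 0.16. Brd2 stood at 289.8 and 259 CPM in unmodified cells with DMSO, 553 and 488 with JQ1, 280.5 and 277 in knockout cells with DMSO and 362 and 364 with JQ1. It rose by 0.92 ± 0.10 in unmodified and by 0.38 ± 0.10 in knockout cells. The difference of -0.54 ± 0.14 (adjusted p = 0.0489) passed in 1 of 8 fits and that of Larp7, 0.96 ± 0.22 (adjusted p = 0.0264), in 3. Hexim1, an inhibitor of P-TEFb, differed by 0.26 ± 0.14 (adjusted p = 0.286) and did not pass. Of the Mediator genes Med4 passed as higher and Med13l as lower, in 1 and 2 of 8 fits.

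In 5 of the remaining lists 1 or 2 genes passed. Among 14 formative and primed genes Otx2 was higher and Foxd3 lower. Otx2, a driver of the exit from the naive state, stood at 33 and 56.2 CPM in unmodified cells with DMSO, 15.7 and 29.7 with JQ1, 5.28 and 7.10 in knockout cells with DMSO and 9.96 and 11.9 with JQ1, a difference of 1.79 ± 0.43 (adjusted p = 0.035) in 2 of 8 fits. Dnmt3b, the de novo methyltransferase, rose in both genotypes (difference -0.07 ± 0.18, adjusted p = 0.855). Of 14 Nodal pathway genes 1 passed, the inhibitor Skil, as lower, in 1 of 8 fits (adjusted p up to 0.18). Lefty1, a Nodal antagonist, fell from 12 and 17.3 CPM to 0.172 and 0.223 in the knockout and from 105 and 166 to 11.9 and 13.4 in unmodified cells, and its difference did not pass (-2.80 ± 0.92, adjusted p = 0.103). Of 17 primitive endoderm genes the laminins Lamb1 and Lamc1 were lower, each in 1 of 8 fits, of 12 trophoblast and keratin genes Tfap2c was higher in 3, and of 14 germline genes Sycp1 was lower in 2.

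In 8 lists no member passed. By edgeR 0 of 16 glycolysis, 15 p53 target, 14 G2/M, 16 ribosome biogenesis, 10 Myc family, 13 mitochondrially encoded, 9 contractile and 5 two-cell-like genes passed. At an unadjusted p under 0.05 the counts were 5, 6, 3, 5, 4, 1, 3 and 0, and by DESeq2 4, 4, 1, 1, 2, 0, 1 and 0. DESeq2 passed 1350 of the 13364 genes it tested, and the lists were not tested against that share. The share of all genes at an unadjusted p under 0.05 was not counted, so those counts cannot be judged against it. Glycolysis genes had a median difference of 0.26 with 14 of 16 positive, and p53 targets one of 0.53 with 13 of 15 positive. Cdkn1a, the cell cycle inhibitor p21 and a p53 target, stood at 94.6 and 65.8 CPM in unmodified cells with DMSO, 46 and 31.5 with JQ1, 69.8 and 62.2 in knockout cells with DMSO and 70.8 and 54.7 with JQ1, and its difference was 0.98 ± 0.29 (adjusted p = 0.0775). The two-cell-like genes were at or near 0 counts with JQ1 in both genotypes, so their fitted differences carry no size.

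**Figure D4:**
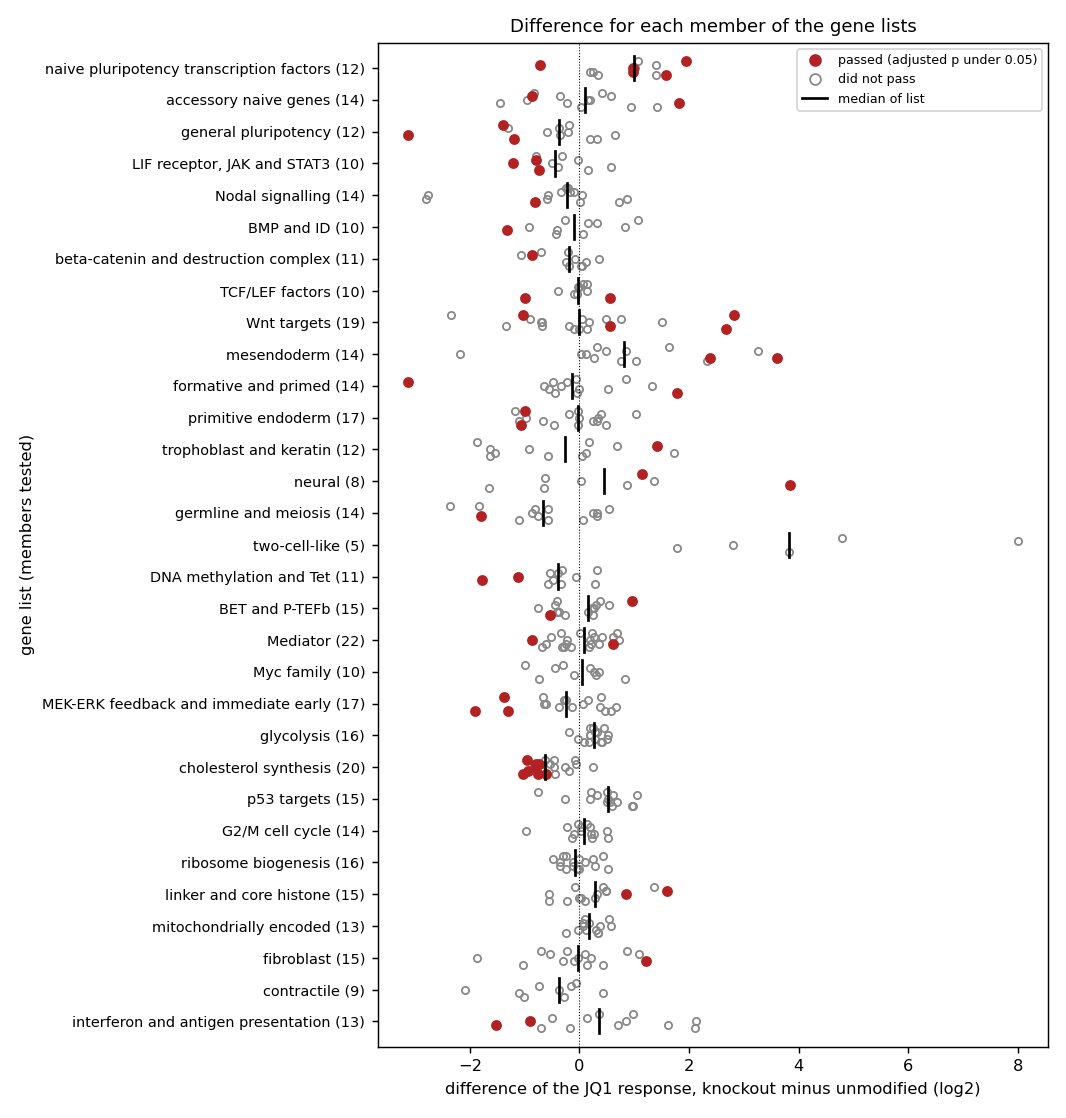
Each small point is the difference (x axis, log2, knockout minus unmodified JQ1 response) of a gene of the list named on the y axis, coloured where it passed, and the vertical mark is the median of the list. Naive pluripotency transcription factors have a median of 1.00 and cholesterol synthesis genes one of -0.62, beside -0.02 over all genes.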

How the data were processed

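Polyadenylated RNA of ES cells was sequenced by the authors as paired reads, and 1 table per library was deposited. The values used are the deposited RSEM expected counts of each gene, unscaled for depth, per the file headers. The submitters' processing notes list STAR 2.5.2, DESeq2 1.18.1, bcl2fastq and RSEM with mm10 as the genome, and the annotation release, strand setting and filters are not given in the sources used here. Of 52550 identifiers per table, 52403 (99.72%) matched GENCODE M21 (GRCm38) without their version, and symbols and coordinates are from that release. Reads that genes share are split by RSEM, so 6.11% to 8.71% of values per library were not whole.

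Expected counts were rounded and fitted in R 4.3.3 with edgeR 4.0.16 (limma 3.58.1). Genes were kept by filterByExpr (minimum count 10, minimum total 15), leaving 16987. After TMM scaling, 1 quasi-likelihood fit to all 6 groups of the series, 12 libraries, gave 6 residual degrees of freedom and a common biological coefficient of variation of 0.129. For the difference, the 4 libraries in 2iL add only to the estimate of the spread. The spread between the 2 libraries of a group, as chi-square per gene, was 28.2 and 32.6 in the unmodified groups with DMSO and JQ1 and 8.44 and 7.93 in the knockout, whereas the fit assumes 1 spread per gene. The difference of responses was tested two-sided with Benjamini-Hochberg adjustment over all genes at 0.05. The SE is the log2 value divided by the square root of F. The same fit was run on simulated counts of 16987 genes, 200 of them changed in each of 3 runs. It recovered 55.3% of differences of log2 1 and 99% of those of log2 2, and 9.04% of its calls were unchanged genes. Changed genes had a mean of at least 5 CPM and were changed in the knockout JQ1 group only. Every group otherwise had the same mean and spread for a gene. The real groups differ in both, so these rates may not hold for them.

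Named genes are the 15 highest and 15 lowest differences among passing genes that reached 5 CPM in at least 1 group and kept their sign with each library left out, the 8 with the smallest adjusted p in each of 6 response patterns, members of 31 gene lists (403 of 419 genes tested), and Gsk3a and Gsk3b. The comparison, its lists and its tests were chosen with earlier results of these data known. A few predicted genes named by the rule are counted but not described, and a few other genes of the lists are counted but not reported here. Promoter windows are the 250 bases before each RefSeq start, and the motifs searched on both strands were CTTTGAT (TCF/LEF), AAGGTCA (Esrrb and Nr5a2), ATGCAAAT (octamer) and TTCCNGGAA (STAT). Only exact matches to these letters were counted, with N as any letter. Alternatives were RLE scaling, no count filter, a filter of 1 CPM in 4 libraries, the 8 libraries alone, DESeq2 1.42.0, a replicate block, a log2 size of at least 1 and each library left out, and, chosen after seeing the data, a fit without mitochondrially encoded genes and a fit of genes at 1 CPM or more in both DMSO groups.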

Additional observations from a re-analysis of the deposited data

Results flagged for a closer look

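The comparison is itself a difference between the effects of JQ1 in 2 genotypes, and by the interaction test of edgeR it passed for 742 genes. The 8 genes with the smallest adjusted p among those eligible for naming that were called in opposite directions are given here. Of these, 5 rose in unmodified cells and fell in the knockout, with differences of -2.04 ± 0.19 for Nectin1, -1.73 ± 0.20 for Grhl2, -1.61 ± 0.16 for Tmem181b-ps, -1.50 ± 0.17 for Cldn6 and -1.23 ± 0.15 for Epcam. The other 3 fell in unmodified cells and rose in the knockout, with 3.73 ± 0.44 for Mobp, 1.58 ± 0.19 for Arl4a and 1.22 ± 0.14 for D230025D16Rik. Mobp, a myelin gene, stood at 1.61 and 2.51 CPM in unmodified cells with DMSO, 0.391 and 0.436 with JQ1, 3.00 and 4.02 in knockout cells with DMSO and 10.5 and 9.13 with JQ1. Arl4a, a small GTPase, stood at 18.8 and 22.4 CPM in unmodified cells with DMSO, 12.8 and 13.8 with JQ1, 11.2 and 10.8 in knockout cells with DMSO and 20.9 and 21.8 with JQ1. Tmem181b-ps is a pseudogene that shares sequence with its parent gene, so its counts are uncertain. With 2 libraries per group, single libraries could not be screened for outlying values.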

How the results depend on the processing

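The difference kept its sign for each of the 104 named genes that passed in every alternative run that tested it. For genes named by size or response pattern, this was a condition of naming in the fits with a library left out. All runs share most of their data, so a kept sign says little. Of the 742 genes, 695 also passed with RLE scaling, 729 with a stricter filter, 636 in a fit of the 8 serum/LIF libraries alone, 723 without mitochondrially encoded genes and 717 by DESeq2. Without a count filter 2011 of 30185 genes passed (732 higher, 1279 lower). DESeq2 gave 1350 genes, and its split of 540 higher and 810 lower was less lopsided than 212 and 530. Of the differences, 521 reached a log2 size of 1, 120 higher and 401 lower. At that size 1684 genes remained for JQ1 in unmodified cells, 2475 for JQ1 in the knockout, 3491 for knockout against unmodified cells with DMSO and 3660 with JQ1. With 1 library left out, 196 to 1787 genes passed for the difference, 46 to 757 higher and 150 to 1030 lower, and 1954 to 3222 passed for JQ1 in unmodified cells, 3215 to 6432 for JQ1 in the knockout, 4543 to 7015 for the genotypes with DMSO and 5266 to 7361 with JQ1. The lone library left is then assumed to vary like the other groups.

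With the replicate number as a block 1110 genes passed, 357 higher and 753 lower, and these held all 742. Same-numbered libraries of the 4 serum/LIF groups deviated together with correlations of 0.056 to 0.37, all positive. The lowest, 0.056, was between the unmodified and knockout groups with DMSO, and the others were 0.158 or more. The labels do not tie the numbers to a shared culture, so whether the numbers pair the libraries cannot be told. Genes near the detection floor carry fitted differences of uncertain size, and a gene with no counts in a library of 18154447 counts can still have stood at up to 0.17 CPM by a limit of 3 counts, which covers counting error only.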

Other observations

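The series also holds unmodified cells in 2iL, a serum-free medium with LIF and inhibitors of MEK and GSK3, treated with JQ1 in the same way, and their responses are set beside the difference as values. Of the 530 genes with a lower response in the knockout, 238 fell and 71 rose with JQ1 in 2iL, with a median of -0.42. Of the 212 higher genes, 49 rose and 47 fell, with a median of -0.04. Over all 16987 genes 11.2% rose and 17.3% fell in 2iL, with a median of -0.06. Of the junction genes, Epcam fell by 1.44 ± 0.12 (adjusted p = 8.82e-06) in 2iL, Ocln by 1.90 ± 0.29 (adjusted p = 0.000482), Ap1m2 by 2.52 ± 0.24 (adjusted p = 1.92e-05) and Cldn7 by 1.48 ± 0.42 (adjusted p = 0.0188), whereas Nectin1, Cldn6 and Grhl2 did not pass there (-0.24 ± 0.14, -0.15 ± 0.19 and -0.21 ± 0.20). Kbtbd11 fell by 2.84 ± 0.23 (adjusted p = 6.42e-06), Atp2a3 by 2.40 ± 0.23 (adjusted p = 2.07e-05) and Ggt1 by 4.02 ± 0.30 (adjusted p = 4.15e-06). Of the genes that were higher in the knockout, Nanog and Nr5a2 did not pass in 2iL, at 0.23 ± 0.14 (adjusted p = 0.243) and 0.23 ± 0.16 (adjusted p = 0.294), Notum fell by 1.11 ± 0.20 (adjusted p = 0.00169), Sox21 rose by 1.05 ± 0.17 (adjusted p = 0.000829) and Sox11 by 2.40 ± 0.36 (adjusted p = 0.000482). The 2iL response was not tested against that of the knockout here.

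Of the 4 motifs, ATGCAAAT was found in the promoter window of Srebf2 and TTCCNGGAA in that of Tnfrsf1b, and AAGGTCA in those of Arl4a, Dhcr7, Msrb2, Pim3 and Tcf7. These are 1, 1 and 5 of 103 windows of named genes that passed, and in all 32851 windows the shares were 1.60%, 0.913% and 4.08%. These are matches of letters and no test of binding.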
